A study of Homo sapiens with 6 samples.

Results

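The BCL2 family genes examined here are 10 genes for proteins that hold back or start cell death at mitochondria. They were taken from the 29483 genes of the expression table by matching Ensembl identifiers to the symbols *BCL2*, *BCL2L1*, *MCL1*, *BCL2L2*, *BAX*, *BAK1*, *BID*, *BAD*, *BCL2L11*, and *BMF*, and each symbol matched 1 gene. Of these, 9 had a mean of at least 0.5 FPKM (fragments per kilobase of exon and per library size) and were tested, and *BCL2* was below this level. The relatives *BBC3* and *PMAIP1* were not part of the group and are described with the wider pathway.

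RNA was sequenced from the established line HK-2, which derives from epithelium of the human proximal tubule. All cells were kept in 25 mM high glucose (HG) medium for 7 days. The 3 libraries of the control group came from cells in HG medium without TEPP-46, and the 3 libraries of the case group came from cells in HG medium that then received 10 μM TEPP-46, an activator of the glycolytic enzyme PKM2, for 1 day. The comparison therefore asks what TEPP-46 changed in cells already exposed to HG, and cells in normal glucose were not analysed here. The library sizes behind the FPKM values, as derived from those values, were 18634891, 17924033, and 17378710 for the control replicates 1, 2, and 3. For the case replicates 1, 2, and 3 they were 16711934, 16047243, and 15363254. These sizes stand for reads counted on genes, and the paper lists more sequenced reads for each library. The replicates are described as independent, without saying whether they were started as separate cultures, so the P-values measure the spread between these samples, which may be technical.

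Proteins of the BCL2 family decide whether the outer mitochondrial membrane stays closed. Survival proteins such as BCL-XL and MCL1 bind and restrain the effectors BAX and BAK, which otherwise form pores through which cytochrome c escapes and activates caspases. BH3-only proteins such as BIM, BMF, BID, and BAD report stress by binding the survival proteins or the effectors, and in the renal tubule this balance is known to influence the loss of epithelial cells after injury.

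The cell line was first checked against marker genes. Among the proximal tubule markers, the endocytic receptor gene *LRP2* was listed at 0 in 5 of 6 libraries, the receptor gene *CUBN* was at most 0.0508 FPKM, and the water channel gene *AQP1* was at most 0.123 FPKM, so these defining markers of the labelled cell type were nearly absent. All 7 epithelial and line markers in the table reached the level, led by the keratin gene *KRT19*, and their sum was 1268 to 1400 FPKM in the control group, against 1080 to 1443 FPKM in the case group. Within this list the adhesion gene *CDH1* fell, from 3.34, 3.5, and 3.4 FPKM to 1.83, 2.32, and 2.00 FPKM (log2 change -0.64, limma adjusted p = 0.0156), and the intermediate filament gene *VIM* rose, from 91.1, 96.1, and 97.1 FPKM to 150, 119, and 162 FPKM (0.66, limma adjusted p = 0.0204), while the other 5 markers did not pass. These markers moved with the treatment, and their part in the results on the family was not tested. Of 9 markers of other kidney cells in the table, none reached 0.5 FPKM, their sum was 0.301 to 0.579 FPKM, and *COL1A1* was the most abundant.

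Case replicate 2 stood nearer to the control group than the other case libraries did. On the first principal component of all tested genes, which held 37.2% of the variance, the control replicates lay at -22.9, -27.8, and -23.7, and the case replicates 1, 2, and 3 lay at 30.5, 9.54, and 34.4. The median SD of a gene between replicates was 0.09 on the log2 scale in the control group, against 0.19 in the case group. The called family genes are therefore also given without case replicate 2.

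Expression levels of the family spanned a wide range, and the order was nearly fixed. By FPKM, which is per length, *MCL1* was highest in every library, followed by *BCL2L1*, *BID*, *BAK1*, and *BAX*, then by *BAD*, *BCL2L2*, *BCL2L11*, *BMF*, and *BCL2*. This order was the same in 5 of 6 libraries, and in case replicate 2 *BCL2L2* was above *BAD*. *BCL2L2* and *BAD* were the neighbours whose ranges met, with 3.10 to 4.37 FPKM and 3.98 to 6.52 FPKM, whereas *BID* at 32.4 to 38.7 FPKM and *BAK1* at 24.4 to 32.5 FPKM met only across groups and were in the same order within each library. *MCL1* held 50.2% to 57.8% of the summed FPKM of the 10 genes.

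**Figure D1:**
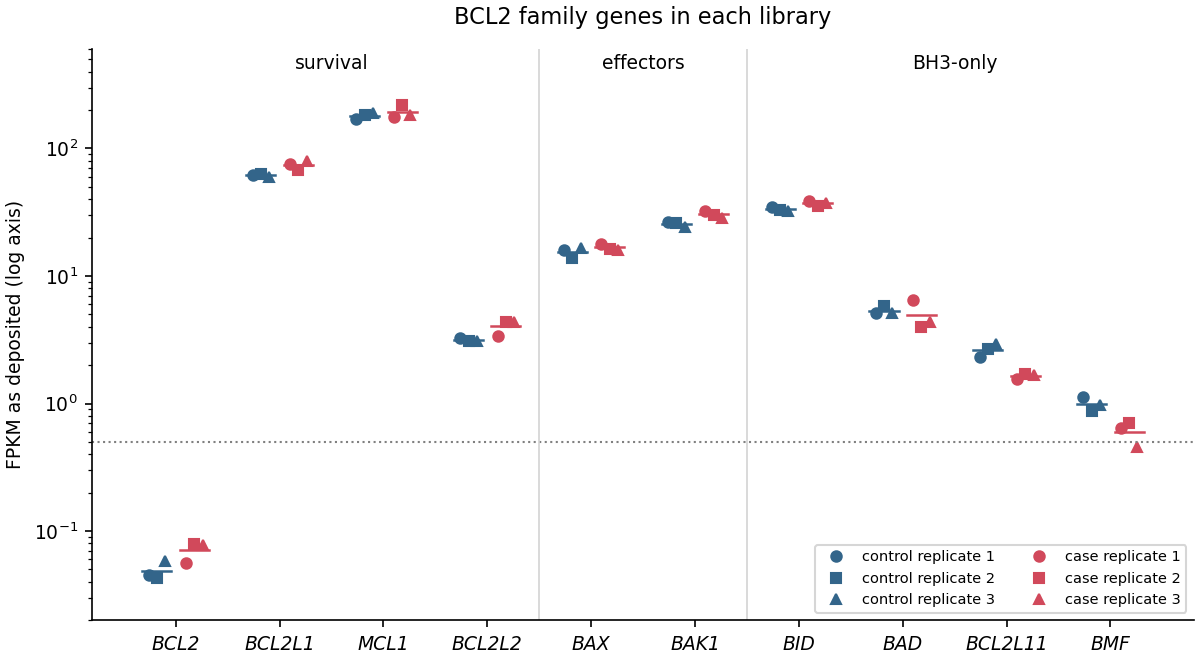
FPKM as deposited (log axis) of the 10 BCL2 family genes, with 1 point per library for the control and case groups, and the dotted line at the mean level of 0.5 FPKM needed for a test. *MCL1* lies at 171 to 219 FPKM and *BCL2* at 0.0427 to 0.0795 FPKM, and the case points of *BCL2L11* and *BMF* lie under their control points.

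After treatment with TEPP-46, 2 survival genes were upregulated and 1 BH3-only gene was downregulated. *BCL2L1* rose 1.27-fold, *BCL2L2* rose 1.33-fold, and *BCL2L11* fell to 0.675 of the control level, each with 3 libraries per group. The other 6 tested genes did not pass the adjusted P-value of 0.05 by limma. DE genes made up 13.2% of the 13599 tested genes, with 7.34% upregulated and 5.84% downregulated, so 3 of 9 genes called is a count over a small number and is given as a description. The 1792 DE genes comprised 998 upregulated and 794 downregulated genes, which became 662 and 1124 without scaling between libraries, and 383 and 2387 with TPM, in which every library is brought to the same sum per length. After scaling, the 3 case values lay above the 3 control values without overlap in 6 of the 9 genes and below them in 2, against 19.5% and 20.4% of all tested genes (39.9% together). The median log2(FC) of the 9 genes was 0.19, beside -0.0017 for all tested genes, and 6 of the 9 genes had an unadjusted P-value under 0.05, as did 33.1% of all tested genes. In this bulk RNA, fewer cells of a type and less RNA per cell cannot be told apart.

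**Figure D2:**
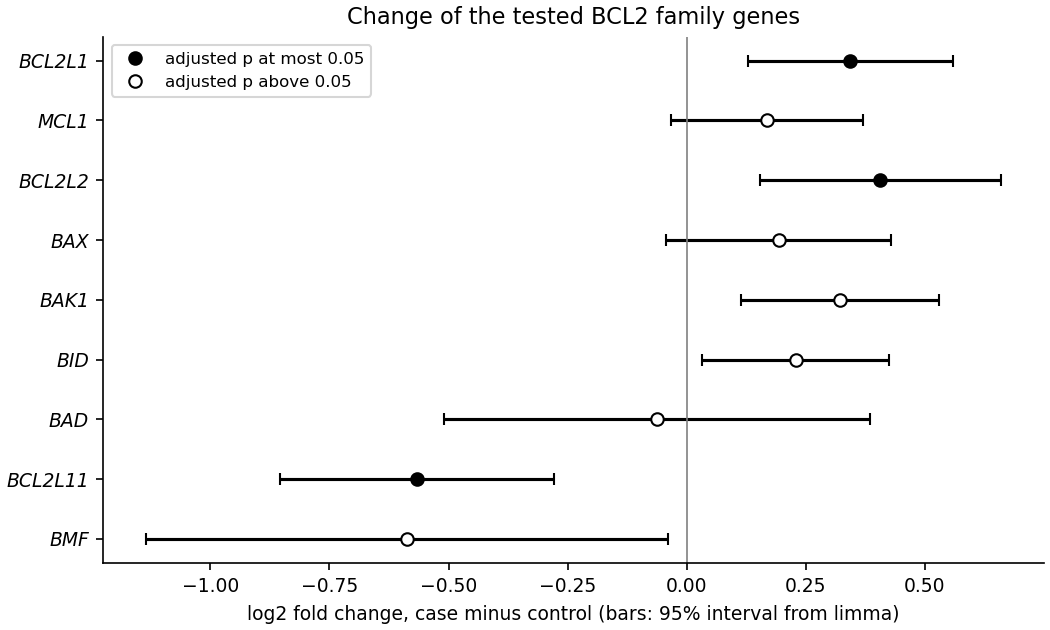
Log2 fold change of the case group over the control group for the 9 tested genes, with bars for the 95% interval from limma and filled points where the adjusted p was 0.05 or less. The intervals of *MCL1*, *BAX*, and *BAD* include 0, and those of *BAK1*, *BID*, and *BMF* do not, although these 3 genes missed the adjusted threshold.

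Among the survival genes, *BCL2L1* encodes BCL-XL and, by alternative splicing, the shorter death-promoting form BCL-XS, which FPKM of the whole gene cannot separate. *BCL2L1* (ENSG00000171552) lies on chromosome 20 from 31664452 to 31723989 of GRCh38 on the minus strand. Its level was 62.4, 63.0, and 59.2 FPKM in the control replicates, against 75.6, 67.5, and 79.5 FPKM in the case replicates. All case values were above all control values, and case replicate 2 was the lowest of the case group. This gave a log2(FC) of 0.34 (SE 0.09, 95% interval 0.13 to 0.56, limma adjusted p = 0.0488). Its reads were at least 1706 to 2093 per library. Without case replicate 2 the log2(FC) was 0.43 (limma adjusted p = 0.0087), but the call was lost without any other library, with adjusted p between 0.0648 and 0.167. Over 19 alternatives of processing, 6 kept the call and the adjusted p ranged from 0.0087 to 0.183.

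*BCL2L2* encodes BCL-W, a survival protein that is related to BCL-XL. The gene (ENSG00000129473) lies on chromosome 14 from 23298790 to 23311751 on the plus strand. Its level was 3.29, 3.10, and 3.12 FPKM in the control replicates, against 3.41, 4.37, and 4.34 FPKM in the case replicates, from 227 to 294 reads per library. The groups did not overlap, but case replicate 1 was close to control replicate 1. The log2(FC) was 0.41 (SE 0.11, 95% interval 0.15 to 0.66, limma adjusted p = 0.0481). Without case replicate 2 it was 0.37 (limma adjusted p = 0.0598), and of the 6 libraries only leaving out case replicate 1 kept the call, with adjusted p = 0.0181 against 0.131 without control replicate 1, 0.169 without control replicate 2, 0.15 without control replicate 3, and 0.139 without case replicate 3. Over 19 alternatives, 6 kept the call and the adjusted p ranged from 0.0181 to 0.272. The readthrough gene *BCL2L2-PABPN1*, which covers 16.8% of the exon bases of *BCL2L2* on the same strand, had at most 2 reads in any library.

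*MCL1* encodes a survival protein that is known for rapid turnover, so its RNA need not follow its protein. The gene (ENSG00000143384) lies on chromosome 1 from 150560895 to 150579738 on the minus strand. It was the most abundant of the group, with 171, 182, and 189 FPKM in the control replicates, against 178, 219, and 181 FPKM in the case replicates, from 12186 to 15362 reads per library. The groups overlapped as deposited, and case replicate 2 was the highest. In the fit its log2(FC) was 0.17 (SE 0.09, 95% interval -0.03 to 0.37, limma adjusted p = 0.218), and it was 0.097 without case replicate 2. Its sign turned with quantile normalization (-0.055) and with TPM (-0.031).

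*BCL2*, the founding survival gene of the family, was almost silent. On chromosome 18 from 63123346 to 63320128 on the minus strand, it had 0.0456, 0.0427, and 0.0587 FPKM in the control replicates, against 0.0559, 0.0795, and 0.0775 FPKM in the case replicates. These values rested on 9 to 15 reads per library and the groups overlapped as deposited. *BCL2* was below the level for testing, and without that filter its log2(FC) was 0.23 (limma adjusted p = 0.579).

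The effectors *BAK1* and *BAX* had higher means in the case group, except that *BAX* was at -0.0056 with TPM, and neither was called. *BAK1*, whose product BAK sits in the outer membrane, lies on chromosome 6 from 33572547 to 33580293 on the minus strand. Its level was 26.5, 26.1, and 24.4 FPKM in the control replicates, against 32.5, 30.3, and 28.6 FPKM in the case replicates. The groups did not overlap, and the lowest case value was 28.6 FPKM against a highest control value of 26.5 FPKM. Its change on the log2 scale was 0.32 (SE 0.09, 95% interval 0.11 to 0.53, limma adjusted p = 0.0529), and 5 of 19 alternatives called it, among them leaving out case replicate 2 (adjusted p = 0.0415), with the adjusted p ranging from 0.0316 to 0.297. *BAX*, whose product moves from the cytosol to mitochondria when activated, lies on chromosome 19 from 48954815 to 48961798 on the plus strand. Its level was 15.9, 13.9, and 16.7 FPKM in the control replicates, against 17.9, 16.4, and 16.1 FPKM in the case replicates, so the groups overlapped as deposited. The log2(FC) was 0.19 (SE 0.10, 95% interval -0.04 to 0.43, limma adjusted p = 0.225), and it was 0.11 without control replicate 2 and 0.13 without case replicate 1. TPM moved the median of all tested genes to -0.19, and relative to that median the TPM values were 0.19 for *BAX*, 0.16 for *MCL1*, 0.34 for *BCL2L1*, and 0.41 for *BCL2L2*. Before that subtraction *BCL2L1* was at 0.14 and *BCL2L2* at 0.21 with TPM, and neither was called. With quantile normalization the median of all tested genes was -0.011. There *BCL2L1* was at 0.18 and not called (limma adjusted p = 0.14), whereas *BCL2L2* was at 0.48 and called (limma adjusted p = 0.0231).

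Among the BH3-only genes, *BCL2L11* had the largest change of the 3 DE genes in the family. It encodes BIM, which binds all the survival proteins and can activate BAX and BAK. The gene (ENSG00000153094) lies on chromosome 2 from 111119378 to 111168444 on the plus strand. Its level was 2.32, 2.66, and 2.91 FPKM in the control replicates, against 1.55, 1.71, and 1.67 FPKM in the case replicates, from 171 to 337 reads per library. Every case value was below every control value, and the case replicates differed little, with 1.65 ± 0.0820 FPKM (SD, n = 3) against 2.63 ± 0.297 FPKM (SD, n = 3). The log2(FC) was -0.57 (SE 0.12, 95% interval -0.85 to -0.28, limma adjusted p = 0.0273). Over 19 alternatives its direction was the same and 13 kept the call, with the adjusted p ranging from 0.0104 to 0.121. The value was -0.57 without case replicate 2 (limma adjusted p = 0.0252), and the call was lost without control replicate 1, 2, or 3 (0.0767, 0.121, and 0.119) and without case replicate 3 (0.0832). In such fits the number of DE genes among all tested genes also fell, to 69 to 105 without a control library and 192 without case replicate 3.

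*BMF* encodes a BH3-only protein that is held at the cytoskeleton in healthy cells. It lies on chromosome 15 from 40087890 to 40108892 on the minus strand. Its level was 1.12, 0.871, and 0.972 FPKM in the control replicates, against 0.637, 0.698, and 0.454 FPKM in the case replicates. The groups did not overlap, as for *BCL2L11*, but the values rested on only 38 to 114 reads per library. A log2(FC) of -0.59 was estimated (SE 0.24, 95% interval -1.13 to -0.04, limma adjusted p = 0.131), which did not pass the threshold, and none of 18 alternatives called it.

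The promoters of *BCL2L11* and *BMF*, the pair of genes with every case value below every control value, are shown with that of *BCL2L1*, which rose. Which start the RNAs used in these cells was not measured. Each is the 250 bases before the outermost RefSeq start of transcription in GRCh38.p14, 5′ to 3′ on the strand of the gene, with the matches to a set of motifs in capitals. The windows are chr2:111120664-111120913 on the plus strand for *BCL2L11*, chr15:40108880-40109129 on the minus strand for *BMF*, and chr20:31723964-31724213 on the minus strand for *BCL2L1*. The *BCL2L11* window lies inside the gene as annotated in GENCODE, and *BMF* and *BCL2L1* each have a second RefSeq start whose window, not shown, held none of the motifs below.
BCL2L11: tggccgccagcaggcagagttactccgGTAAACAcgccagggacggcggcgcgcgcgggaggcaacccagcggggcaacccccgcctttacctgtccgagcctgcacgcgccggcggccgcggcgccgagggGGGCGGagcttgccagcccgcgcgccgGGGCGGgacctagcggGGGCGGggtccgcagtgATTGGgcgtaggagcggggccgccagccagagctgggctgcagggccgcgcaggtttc
BMF: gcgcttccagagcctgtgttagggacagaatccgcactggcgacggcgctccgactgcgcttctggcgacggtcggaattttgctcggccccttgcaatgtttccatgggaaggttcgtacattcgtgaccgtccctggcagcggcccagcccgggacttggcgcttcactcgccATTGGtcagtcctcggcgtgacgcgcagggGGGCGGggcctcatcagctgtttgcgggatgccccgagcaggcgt
BCL2L1: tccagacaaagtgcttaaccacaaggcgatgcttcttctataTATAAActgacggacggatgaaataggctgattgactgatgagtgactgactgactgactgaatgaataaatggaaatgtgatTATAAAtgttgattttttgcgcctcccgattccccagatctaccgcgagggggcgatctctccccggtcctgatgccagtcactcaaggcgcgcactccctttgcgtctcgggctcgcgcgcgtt
The motifs, searched on both strands, were the FOXO core GTAAACA, the C/EBP-ATF composite TGATGNAA, the cAMP response element TGACGTCA, the GC box GGGCGG, the CCAAT box CCAAT, and the TATA box TATAAA. Overlapping matches of different motifs were not seen in these windows. The *BCL2L11* window held 1 FOXO core, 3 GC boxes, and 1 CCAAT box, the *BMF* window held 1 GC box and 1 CCAAT box, and the *BCL2L1* window held 2 TATA boxes. The FOXO core occurred in 2.98% of the 35116 promoter windows in the reference, the GC box in 42.6%, the CCAAT box in 32.0%, and the TATA box in 10.7%. The C/EBP-ATF composite (3.14% of windows) and the cAMP response element (1.65%) were not matched in any window of the 8 family genes with an entry. A match is a run of letters and not a measured binding site. *MCL1* and *BCL2L2* had no entry.

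*BID* and *BAD* did not pass the threshold. *BID*, whose product links death receptors to mitochondria after cleavage by caspase 8, lies on chromosome 22 from 17734138 to 17774770 on the minus strand. Its level was 34.8, 33.0, and 32.4 FPKM in the control replicates, against 38.7, 35.2, and 37.6 FPKM in the case replicates, without overlap. Its log2(FC) was 0.23 (SE 0.09, 95% interval 0.03 to 0.43, limma adjusted p = 0.107), and it was called only without case replicate 2 among 19 alternatives (adjusted p = 0.0328, range 0.0328 to 0.775). *BAD*, whose product is controlled by phosphorylation, lies on chromosome 11 from 64269830 to 64284704 on the minus strand. Its level was 5.12, 5.85, and 5.09 FPKM in the control replicates, against 6.52, 3.98, and 4.38 FPKM in the case replicates, from 109 to 186 reads per library. The case replicates spread on both sides of the control group, and the log2(FC) was -0.06 (SE 0.19, 95% interval -0.51 to 0.38, limma adjusted p = 0.85). Its sign depended on the libraries, with 0.10 without case replicate 2 and -0.29 without case replicate 1. The opposite-strand gene *GPR137* shares 23.7% of the exon bases of *BAD*.

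**Figure D3:**
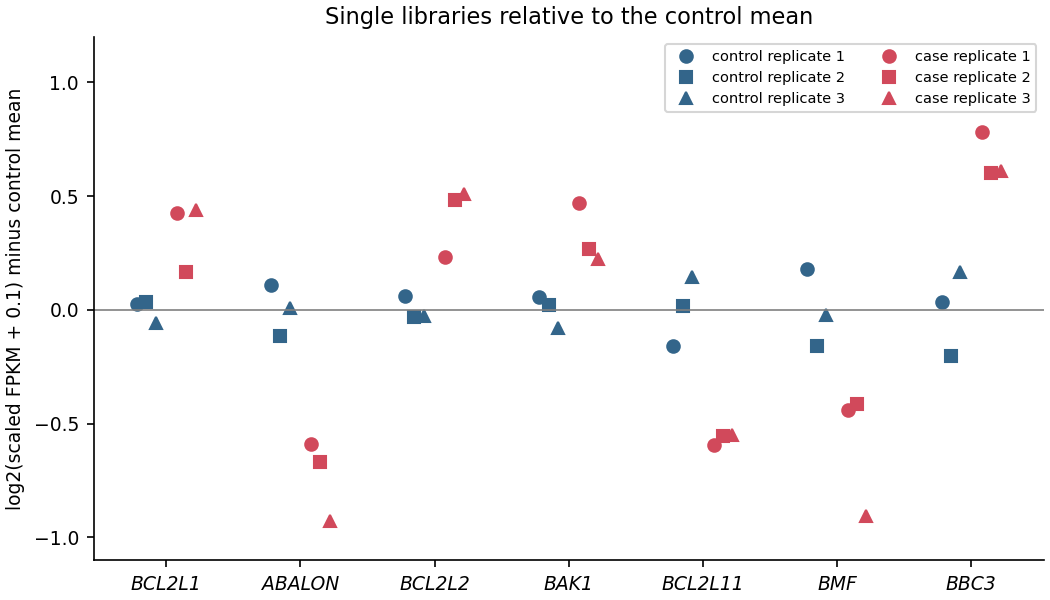
Log2(scaled FPKM + 0.1) of each library minus the mean of the control group. The genes are the family genes *BCL2L1*, *BCL2L2*, *BAK1*, *BCL2L11*, and *BMF*, with *ABALON* and *BBC3*. For *BCL2L11* the case points lie together near -0.55 to -0.59, and for *BMF* they lie between -0.91 and -0.41.

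Ratios of family genes within a library do not depend on scaling between libraries, and are given without a test. The level of *BCL2L11* per *MCL1* was 1.36%, 1.46%, and 1.54% in the control replicates, against 0.874%, 0.782%, and 0.921% in the case replicates, with no overlap. *BCL2L11* per *BCL2L1*, a ratio formed after the values were seen, was 3.72%, 4.22%, and 4.92% in the control replicates, against 2.06%, 2.54%, and 2.1% in the case replicates. The ratio of *BAX* to *BCL2L1*, often used as an index of the balance between death and survival, was 0.255, 0.221, and 0.282 in the control replicates, against 0.236, 0.243, and 0.203 in the case replicates, and overlapped. The ratio of *BCL2L1* to *MCL1* was 0.366, 0.347, and 0.314 in the control replicates, against 0.425, 0.308, and 0.438 in the case replicates. Here case replicate 2 was the lowest of all libraries and the other case replicates were the highest. The summed effectors over the summed survival genes gave 0.180, 0.161, and 0.164 in the control replicates, against 0.196, 0.160, and 0.168 in the case replicates, and the summed BH3-only genes over the summed survival genes gave 0.183, 0.171, and 0.165 in the control replicates, against 0.184, 0.143, and 0.166 in the case replicates. Both ratios overlapped between the groups, and *MCL1* made up most of the survival sum.

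The antisense RNA gene *ABALON* overlaps *BCL2L1* on the opposite strand and was examined for that overlap after its values were seen. It shares 1735 exon bases with *BCL2L1*, 41.3% of the exon bases of *BCL2L1*. Its level was 4.06, 3.49, and 3.81 FPKM in the control replicates, against 2.26, 2.29, and 1.85 FPKM in the case replicates, from 54 to 144 reads per library. The groups did not overlap, and *ABALON* fell with a log2(FC) of -0.73 (SE 0.13, limma adjusted p = 0.0165), opposite in direction to *BCL2L1*. Its level was 6.51%, 5.54%, and 6.43% of that of *BCL2L1* in the control replicates, against 3.00%, 3.40%, and 2.32% in the case replicates. Without case replicate 2 it was -0.76 (adjusted p = 0.0135), and over its alternatives the call was lost without filter and without control replicates 1, 2, and 3 or case replicate 3 (adjusted p = 0.0505 to 0.0784). The strand setting of the counting is not given in the sources used here, so reads of the overlapping pair cannot be told apart. *MIR4435-2HG*, which shares 10.8% of the exon bases of *BCL2L11* on the opposite strand, had a log2(FC) of 0.18 (limma adjusted p = 0.223).

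The genes whose pattern was most like that of *BCL2L11* were taken by Pearson correlation of log2 scaled values over the 6 libraries among 11256 protein-coding genes. They were *RAB11FIP4* (r = 0.997), *TMEM94* (r = 0.997), and *FAM124A* (r = 0.995). *TMEM94* fell with a log2(FC) of -0.52 (limma adjusted p = 0.0248), and the other two did not pass the test. The difference between the groups itself enters a correlation over these libraries, so the values are a description of pattern only.

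The wider cell death pathway was read from 7 lists of 92 genes, of which 90 were in the table and 82 were tested. Of these, 13 were upregulated and 7 downregulated, beside 7.34% and 5.84% of all tested genes, and the median log2(FC) was 0.04. The balance depended on the scaling, with 9 upregulated and 9 downregulated genes without scaling, 7 and 8 with quantile normalization, and 5 and 18 with TPM. Without a control library the count of 20 became 1, which was *DDIT3* each time, without case replicate 3 it became 3, and without case replicates 1 and 2 it became 25 and 30. Among 12 further BCL2 family genes, 10 were tested, 3 rose and none fell, with a median of 0.20. *BBC3*, which encodes the BH3-only protein PUMA, had 1.97, 1.67, and 2.19 FPKM in the control replicates, against 3.10, 2.92, and 2.87 FPKM in the case replicates, and rose with a log2(FC) of 0.67 (SE 0.13, limma adjusted p = 0.0224). *BNIP3*, a mitochondrial protein gene of mitophagy, rose with a log2(FC) of 0.42 (SE 0.08, limma adjusted p = 0.0201), and the survival gene *BCL2A1* with 0.33 (SE 0.09, limma adjusted p = 0.0496). The call of *BCL2A1* was kept in 6 of 19 alternatives, with the adjusted p ranging from 0.0278 to 0.383, and it was lost without each library other than case replicate 1, without scaling, with TPM, with quantile normalization, and with gene length taken into account (0.16, adjusted p = 0.366). *PMAIP1*, the gene of the BH3-only protein NOXA, had a log2(FC) of 0.19 (limma adjusted p = 0.182). *BCL2L12*, *BCL2L13*, *BOK*, *BIK*, *BNIP3L*, and *BCL2L10* did not pass, and *HRK* and *BCL2L14* were too low to test. Of the BH3-only genes tested, *BBC3* was upregulated and *BCL2L11* was downregulated. The call of *BBC3* was lost without the filter, without any control library, and without case replicate 3 (limma adjusted p = 0.0604 to 0.1). It was also lost when length correction was joined to the replicate block (limma adjusted p = 0.051).

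Of the 13 apoptosome and caspase genes, which act at or around the mitochondrial step, none passed, with a median of -0.02. At an unadjusted p under 0.05 there were 4, a share close to the 33.1% of all tested genes. Voom on whole reads called 0, and 1 gene was called with TPM and without case replicate 2 (*CASP2* in both), without case replicate 1 (*CYCS*), and with gene length taken into account (*CASP8*). The largest was *CASP2*, with 4.88, 4.66, and 4.48 FPKM in the control replicates, against 3.17, 4.30, and 2.91 FPKM in the case replicates, and a log2(FC) of -0.37 (limma adjusted p = 0.111). Of 6 tested caspase inhibitors, *BIRC2*, which encodes cIAP1, and *BIRC5*, which encodes survivin, rose with log2(FC) of 0.70 (limma adjusted p = 0.0213) and 0.33 (limma adjusted p = 0.0495). The call of *BIRC5* was kept in 6 of 19 alternatives, with the adjusted p ranging from 0.00967 to 0.178, and it was lost without each library other than case replicate 2, without scaling, with TPM, with quantile normalization, and with gene length taken into account. *BIRC6*, a very large ubiquitin ligase gene, fell with a log2(FC) of -1.03 (SE 0.22, limma adjusted p = 0.0256), from 4.48, 4.78, and 4.71 FPKM to 1.37, 2.95, and 2.32 FPKM. Of 10 tested death receptor genes, the receptor *TNFRSF10B* rose (0.39, limma adjusted p = 0.0238) and the decoy receptor *TNFRSF10D* fell (-0.78, 0.015). Without scaling between libraries *TNFRSF10B* was at 0.31 and was not called (limma adjusted p = 0.0529), and *TNFRSF10D* was called (-0.86, 0.0165).

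Among 12 outer membrane channel and partner genes, the channels *VDAC2* (0.42 on the log2 scale), which binds BAK, and *VDAC3* (0.38) rose, and the calcium channels *ITPR1* (-0.92) and *ITPR3* (-0.67) fell. *VDAC2* had 121, 123, and 119 FPKM in the control replicates, against 152, 151, and 159 FPKM in the case replicates. Its log2(FC) was 0.22 with quantile normalization (limma adjusted p = 0.0451) and 0.23 with TPM (0.0331). The call of *VDAC2* was lost when length correction was joined to the replicate block (limma adjusted p = 0.0544). It was also lost without any control library and without case replicate 3 (0.0578 to 0.0866). Of 16 tested genes of turnover and modification, the phosphatase gene *PPP2CA* rose (0.43), and the ubiquitin ligase *HUWE1* (-0.75), which is known to act on MCL1, and the kinase *GSK3B* (-0.45) fell. Of 15 tested transcription factor genes, *DDIT3* (1.62), *JUN* (0.60), *MYC* (0.45), and *ATF4* (0.35) rose and *STAT3* (-0.61) fell. *DDIT3*, which encodes the stress factor CHOP, had 14.7, 11.7, and 11.9 FPKM in the control replicates, against 35.4, 34.2, and 42.0 FPKM in the case replicates (SE 0.12, limma adjusted p = 0.0015). *FOXO3* had a log2(FC) of -0.03 (limma adjusted p = 0.937), and *FOXO1*, at under 1 FPKM, of -0.65 (limma adjusted p = 0.151).

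**Figure D4:**
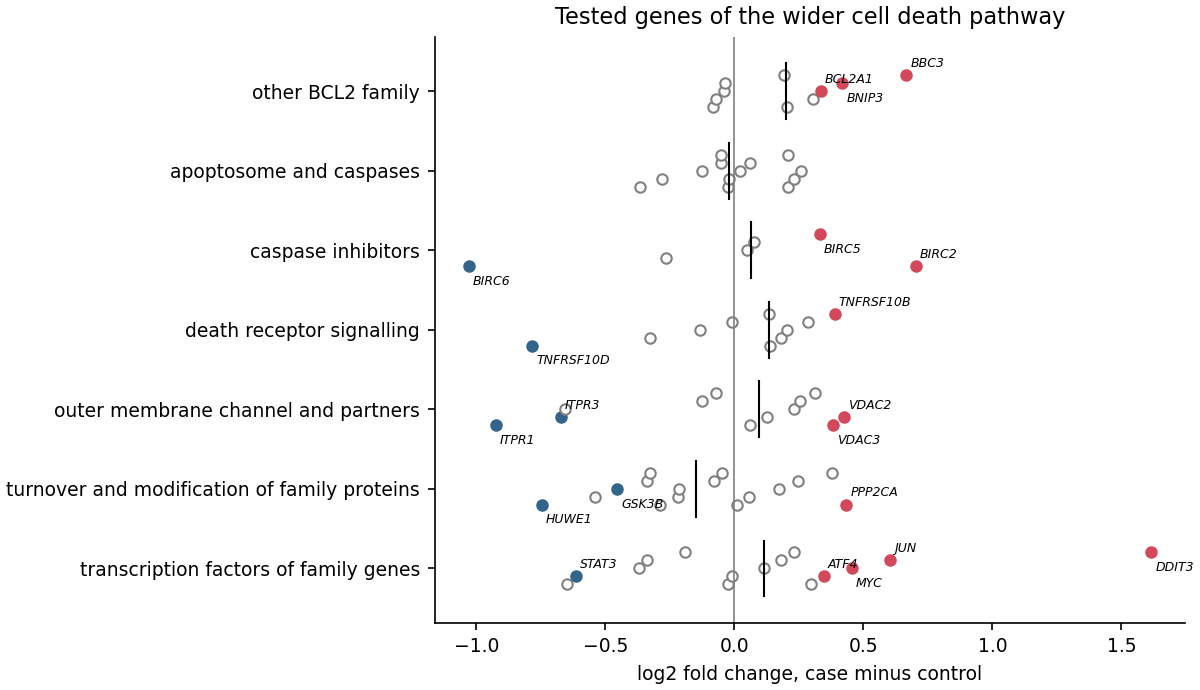
Log2 fold change of the 82 tested genes of the wider cell death pathway in 7 lists, with filled red points for upregulated and filled blue points for downregulated DE genes, open points for the others, and a black bar at the median of each list. *DDIT3* lies at 1.62 and *BIRC6* at -1.03, and no apoptosome or caspase gene is filled.

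The change of a gene moved with its length in these libraries. For genes with under 1000 exon bases the median log2(FC) was 0.15, for 1000 to 2000 it was 0.16, for 2000 to 4000 it was 0.11, for 4000 to 8000 it was -0.04, and for 8000 and above it was -0.18. *BCL2L11* has 6742 and *BCL2L1* 4197 exon bases, and *BAK1* has 2212. After a smooth trend on length was removed from each library, *BCL2L11* had a log2(FC) of -0.49 (limma adjusted p = 0.0396), *BCL2L1* of 0.31 (0.0526), *BCL2L2* of 0.41 (0.0448), and *BAK1* of 0.18 (0.192). The remaining members were not called after it, with *MCL1* at 0.23 (limma adjusted p = 0.0771), *BAX* at 0.058 (0.689), *BID* at 0.21 (0.116), *BAD* at -0.22 (0.403), and *BMF* at -0.56 (0.14). Of the 7 downregulated genes of the wider pathway, all but *TNFRSF10D* have over 8000 exon bases. After the correction 4 of the 7 were called, namely *BIRC6* (-0.79), *HUWE1* (-0.51), *STAT3* (-0.43), and *TNFRSF10D* (-0.86). The calls of *ITPR1* (-0.62, limma adjusted p = 0.0639), *ITPR3* (-0.51, 0.0526), and *GSK3B* (-0.22, 0.103) were lost. In the wider pathway 15 genes were upregulated and 4 downregulated after the correction, against 13 and 7 before it.

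**Figure D5:**
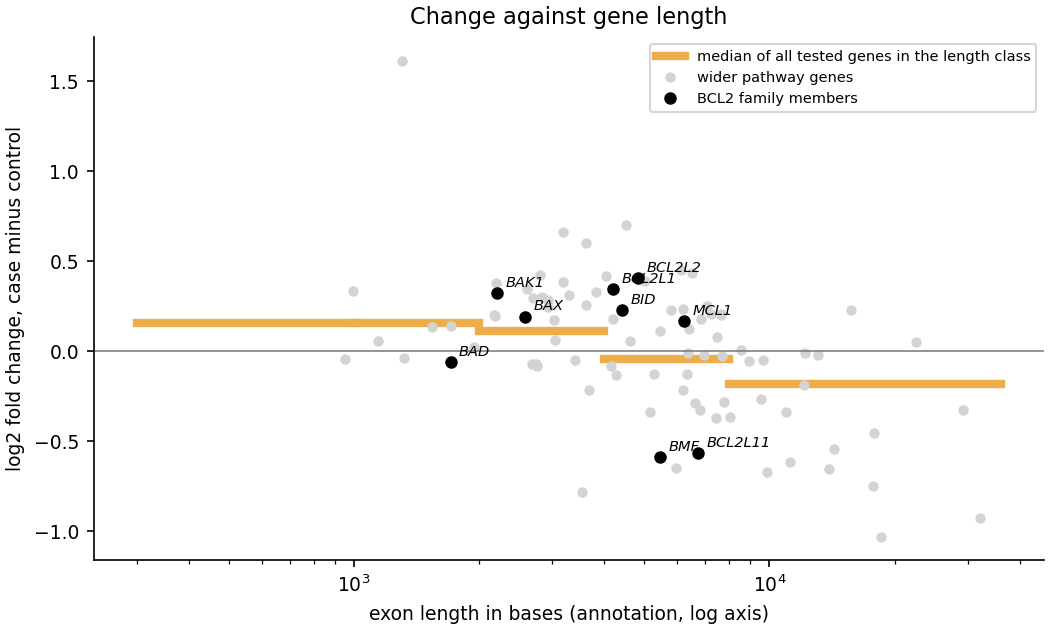
Log2 fold change against exon length (log axis) for the tested family genes in black and the wider pathway genes in grey, with orange bars at the median of all tested genes in each length class. The medians step from 0.15 in the shortest class to -0.18 in the longest, and *BCL2L11* and *BMF* lie below the bar of their class.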

How the data were processed

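The authors removed low-quality reads, used HISAT2 2.1.0 for alignment to GRCh38.p13 and HTSeq 0.6.0 for counting, and deposited FPKM values of 29483 genes in 6 libraries (versions per the submitters' processing notes). The strand setting, the annotation version and the RNA selection are not given in the sources used here. All columns were used (0 not used). Whole reads and library sizes were recovered from the FPKM values alone. Reads are known up to a common factor, and for *BCL2L1* the stated reads are a lower bound. No molecular identifiers are described, so reads may not be independent molecules.

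Each library's FPKM values were scaled by a median-of-ratios factor and log2 transformed after adding 0.1, and genes with a mean of at least 0.5 FPKM were tested in R 4.3.3 with limma 3.58.1 with an intensity trend and no covariates. P-values were adjusted over 13599 genes by the Benjamini-Hochberg method, with a threshold of 0.05. Fold changes are on the log2(scaled FPKM + 0.1) scale and understate the change of low genes. Exact permutation tests of 3 against 3 libraries cannot go below 0.1 and were not used.

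Symbols and positions came from a GENCODE annotation of GRCh38 by Ensembl identifier, and promoter windows from RefSeq. All 10 family genes were named, with up to 4 DE genes of largest change from each pathway list, any gene of the list of other BCL2 family genes, and the 3 genes most like *BCL2L11*. *ABALON*, *GPR137*, *MIR4435-2HG*, *BCL2L2-PABPN1*, *CASP2*, *CASP8*, *CYCS*, *CDH1*, *VIM*, *ATF4*, *FOXO1*, and *FOXO3* were named after their values were seen. The members and lists were chosen with earlier results of these data known. Some genes of the lists are not reported here. The procedure was tested on simulated data. For the fit, those data had equal spread in both groups and no trend on length, unlike these libraries. Alternatives were other pseudocounts, filters, scalings and estimations, the replicate block, voom, leaving out each library, and, chosen after seeing the data, a gene length correction.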

Additional observations from a re-analysis of the deposited data

How the results depend on the processing

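Of 1792 DE genes among all tested genes, the count was 524 without the filter on low values, 2770 with TPM, 852 without the intensity trend, 2842 with voom on whole reads, and 1055 when length correction was joined to the replicate block. Leaving out a library gave 69 to 3495. For the family genes, 3 calls became 0 without the filter, 1 without scaling, 1 with TPM, 1 without the trend, 1 with the replicate block, and 0 when length correction was joined to the replicate block, and leaving out a library gave 0 to 4. For the wider pathway, 20 calls became 8 without the filter, 8 without the trend, and 12 when length correction was joined to the replicate block, and leaving out a library gave 1 to 30. The causes were not tested. The sign turned for *MCL1* with TPM (-0.031) and quantile normalization (-0.055), for *BAX* with TPM (-0.0056), and for *BAD* without a library (range -0.29 to 0.10). Every alternative kept the direction of *BCL2L1*, *BCL2L2*, *BAK1*, *BID*, *BCL2L11*, and *BMF*.

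The replicate numbers were not shown to pair the samples. Libraries with the same number correlated in their deviations from the group means at 0.06, 0.10, and -0.05. With the replicate block, 1610 genes were called among all tested genes and 1 in the family, *BCL2L11* (limma adjusted p = 0.0438), while *BCL2L1* (0.0652) and *BCL2L2* (0.0732) were not. The gene length correction was chosen after seeing the data. Read numbers were low for *BCL2*, with 9 to 15 reads per library, and for *BMF*, with 38 to 114. Whether depth limited the result for *BMF* was not tested.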
